A study of Mus musculus with 24 samples.

Results

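The genes that hold the mouse oocyte at the first meiotic prophase, and those that release it, were followed here in oocytes grown without follicles in 5% O2 or in 20% O2. The set comprised 10 genes chosen by name, namely Gpr3, Pde3a, Wee2, Cdc25b, Cdk1, Ccnb1, Ccnb2, Fzr1, Mos and Plk1, and all 10 were found, each on a single row, among the 16572 gene names of the deposited RNA-seq table. The oocytes came from ovaries of mice 7 days old, labelled C57BL/6 Barb, whereas the methods of the study describe a cross of C57 Black6 with SV129. They were freed by trypsin and collagenase and plated on gelatine, in a medium with bovine serum albumin, epidermal growth factor and follicle stimulating hormone that was the same for both conditions. Class IV oocytes, labelled 60 to 70 µm in both conditions, were collected after 9 days in 5% O2 (IV 5% O2) and after 14 days in 20% O2 (IV 20% O2), and the medium was changed more often in 5% O2. Oxygen, culture time and medium changes therefore cannot be told apart. The methods give the IV 20% O2 oocytes a slightly smaller diameter than the labels do. By the paper's DNA staining, chromatin condensed around the nucleolus, a state it links to silent transcription, was less frequent at the higher oxygen level. The class IV oocytes of the conditions may therefore also differ in size and in maturation. The part of either in the differences given here was not tested. RNA came from pools of oocytes, and how many animals they represent is not stated. Each condition had 2 RNA-seq libraries but only 1 deposited value per gene, so no value has an SD and no difference could be set against the spread between libraries.

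The values were log2 RPM (reads-per-million), the reads of a gene scaled to the total of its column, with no correction for gene length. They implied 132185259 reads for IV 5% O2 and 40875359 reads for IV 20% O2, and 3 reads, the limit that a count of 0 allows, correspond to 0.0227 and 0.0734 RPM. Differences are log2(RPM + 1) of IV 5% O2 minus IV 20% O2, a scale on which the differences of low genes come out too small, and intervals are 95% Clopper-Pearson intervals of the ratio of reads without the added 1. These intervals compare the pooled reads of the columns and cover counting error only, because a pooled column holds no spread between libraries. Reads without molecular identifiers are not independent molecules, so the intervals may be too narrow even for counting error. The median gene among the 14704 with a mean of at least 1 RPM lay at 0.26, so each difference is also given relative to it. In bulk RNA, fewer cells of a type and less RNA per cell cannot be told apart.

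The fully grown oocyte rests in prophase because cyclic AMP stays high. The orphan receptor GPR3 keeps adenylyl cyclase active through the Gs protein, and protein kinase A then keeps CDK1 shut by favouring the inhibitory kinase WEE2 over the phosphatase CDC25B. The phosphodiesterase PDE3A degrades cyclic AMP when the block is lifted, CDK1 with its cyclin B partners drives entry into the first meiotic division, and PLK1 reinforces this switch. FZR1, also called CDH1, directs the anaphase-promoting complex to destroy cyclin B during arrest, and MOS starts the MAP kinase cascade that later holds the egg at the second metaphase.

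None of the 10 genes was 2-fold apart between the conditions, whereas 27.9% of all genes tested were (18.7% higher and 9.22% lower in IV 5% O2). The balance of these calls depended on the scaling of the columns: as deposited 2753 genes were higher and 1356 lower, with median-ratio scaling 1700 and 2031, and with quantile normalization 1764 and 1866. With a pseudocount of 5 in place of 1, only 1202 were higher and 706 lower, as fewer low genes passed 2-fold. Apart from Gpr3, the members are abundant, each above at least 79.5% of the genes tested in both columns. The share called among genes of similar level was not computed. Wee2, Cdc25b, Cdk1, Fzr1 and Plk1 were higher in IV 5% O2, and Gpr3, Pde3a, Mos, Ccnb1 and Ccnb2 were lower. These signs were the same with each pseudocount, filter and scaling tried. The differences ran from -0.67 for Gpr3 to 0.82 for Wee2, with a median of 0.23 against 0.26 for all genes tested. The 5 genes with higher values lay above the median gene and the 5 others below it. Over all genes tested, 62.6% had a higher value in IV 5% O2 as deposited.

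**Figure D1:**
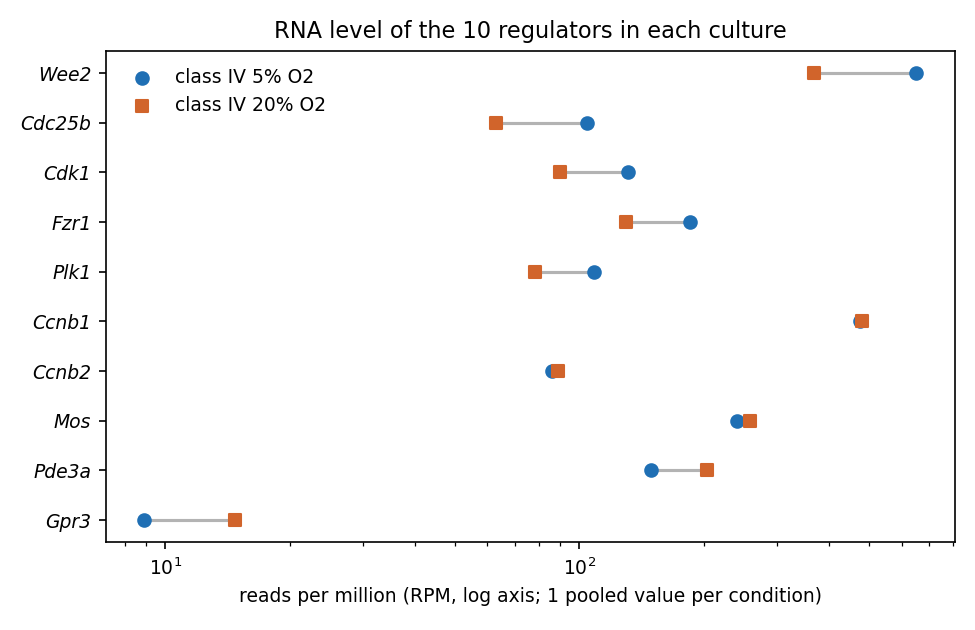
RNA level of each of the 10 regulators (horizontal axis, RPM on a log scale) in IV 5% O2 (circles) and IV 20% O2 (squares), 1 pooled value per condition and no error bar. Ccnb1 has nearly the same level in both cultures (476 and 482 RPM), while Wee2 (651 against 369 RPM) and Gpr3 (8.91 against 14.7 RPM) lie at the ends of the order.

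Gpr3 and Pde3a, the members that act on cyclic AMP, both had lower values in IV 5% O2. Gpr3, located on chromosome 4 (GRCm38, bases 133209340 to 133212536), had 1178 reads in IV 5% O2, or 8.91 RPM, against 602 reads in IV 20% O2, or 14.7 RPM. Gpr3 was the least abundant of the 10 genes, and its value was 1.65-fold lower in IV 5% O2 (interval 1.496 to 1.82). The log2 difference was -0.67 (-0.92 relative to the median gene), and 14.8% of all genes tested lay lower. On 7.46% of its exon bases Gpr3 is overlapped by Cd164l2 on the other strand. Pde3a, located on chromosome 6 (bases 141249269 to 141507448), had 19685 reads in IV 5% O2, or 149 RPM, against 8316 reads in IV 20% O2, or 203 RPM. Its value was 1.37-fold lower in IV 5% O2 (interval 1.33 to 1.40), a log2 difference of -0.45 or -0.71 relative to the median gene. The receptor gene and the phosphodiesterase gene act in opposite directions on cyclic AMP, and both transcripts were lower in the same column. Per kb of exon, the ratio of Pde3a to Gpr3 was 3.59 in IV 5% O2 (interval 3.38 to 3.81) and 2.97 in IV 20% O2 (interval 2.73 to 3.23). With median-ratio scaling, which sets each column by the median ratio over genes, the differences of Gpr3 and Pde3a became -0.96 and -0.77, still short of 2-fold. The added 1 RPM shrinks the difference of Gpr3, whose log2 ratio without it was -0.72 as deposited. Its place short of 2-fold with this scaling may therefore rest on the added 1.

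The kinase and the phosphatase that set the inhibitory phosphorylation of CDK1 were both higher in IV 5% O2. Wee2, an oocyte relative of the Wee1 kinase located on chromosome 6 (bases 40439088 to 40466813), had 86036 reads in IV 5% O2, or 651 RPM, against 15099 reads in IV 20% O2, or 369 RPM. Its value was 1.76-fold higher in IV 5% O2 (interval 1.73 to 1.79), and the log2 difference of 0.82 was 0.56 relative to the median gene. Cdc25b, located on chromosome 2 (bases 131186949 to 131198497), had 13800 reads in IV 5% O2, or 104 RPM, against 2577 reads in IV 20% O2, or 63.0 RPM, 1.66-fold higher (interval 1.59 to 1.73). The log2 difference of Cdc25b was 0.72, or 0.46 relative to the median gene. Because both differed in the same direction, the ratio of Wee2 to Cdc25b per kb of exon was 7.40 in IV 5% O2 (interval 7.27 to 7.54) and 6.96 in IV 20% O2 (interval 6.67 to 7.26), a change of 1.06-fold. Such a ratio within a column does not depend on how the columns are scaled to each other by a factor.

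Of the parts of the maturation-promoting kinase itself, the catalytic subunit had a higher value in IV 5% O2, short of 2-fold, and both cyclins were near equality. Cdk1, located on chromosome 10 (bases 69335146 to 69352938), had 17312 reads in IV 5% O2, or 131 RPM, against 3671 reads in IV 20% O2, or 89.8 RPM. Its value was 1.46-fold higher in IV 5% O2 (interval 1.41 to 1.51), a log2 difference of 0.54 that was 0.28 relative to the median gene. Ccnb1, which encodes cyclin B1 located on chromosome 13 (bases 100778650 to 100786570), had 476 RPM (62962 reads) and 482 RPM (19721 reads). The ratio of the columns for Ccnb1 was 0.987 (interval 0.972 to 1.003), so that at this depth counting error alone spans equality. Ccnb2, which encodes cyclin B2 located on chromosome 9 (bases 70407692 to 70421547), had 85.8 RPM (11341 reads) and 88.7 RPM (3625 reads), a ratio of 0.967 (interval 0.932 to 1.005). Set against the median gene, both cyclins were lower, at -0.28 and -0.31, and median-ratio scaling put them at -0.34 and -0.36.

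The cyclin B1 to B2 ratio per kb of exon was 2.02 in IV 5% O2 (interval 1.98 to 2.06) and 1.98 in IV 20% O2 (interval 1.91 to 2.05). The ratio of Cdk1 to Ccnb1 was 0.235 in IV 5% O2 (interval 0.231 to 0.239) and 0.159 in IV 20% O2 (interval 0.154 to 0.165), and that of Cdk1 to Ccnb2 was 0.474 and 0.314. Kinase transcripts were thus 1.48-fold and 1.51-fold higher per cyclin transcript in IV 5% O2, whereas the proportion of the cyclins differed by 1.02-fold. The level of Ccnb1 is uncertain, since 34.0% of its 50-base exon windows and 16.8% of its 100-base windows, the length of a read, occur more than once in the 22 chromosome sequences. Copies lie, among others, at the pseudogene Ccnb1-ps on chromosome 7. No window of Ccnb2 or Cdk1 is repeated.

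Fzr1 and Plk1 were higher in IV 5% O2, and Mos was close to equal. Fzr1, located on chromosome 10 (bases 81366222 to 81378516), had 24467 reads in IV 5% O2, or 185 RPM, against 5301 reads in IV 20% O2, or 130 RPM, 1.43-fold higher (interval 1.39 to 1.47). Its log2 difference was 0.51, or 0.25 relative to the median gene. The ratio of Fzr1 to Ccnb1, an activator of cyclin destruction to its substrate, was 0.365 per kb of exon in IV 5% O2 and 0.253 in IV 20% O2. Plk1, located on chromosome 7 (bases 122159439 to 122169873), had 109 RPM (14383 reads) and 78.1 RPM (3193 reads). The value of Plk1 was 1.39-fold higher in IV 5% O2 (interval 1.34 to 1.45), a log2 difference of 0.47 or 0.21 relative to the median gene, the smallest among the genes with higher values. Mos, a gene of 1 exon located on chromosome 4 (bases 3870657 to 3872105), had 241 RPM (31814 reads) and 258 RPM (10535 reads). Its value was 1.07-fold lower in IV 5% O2 (interval 1.05 to 1.09). The log2 difference of Mos was -0.10, and -0.36 relative to the median gene.

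**Figure D2:**
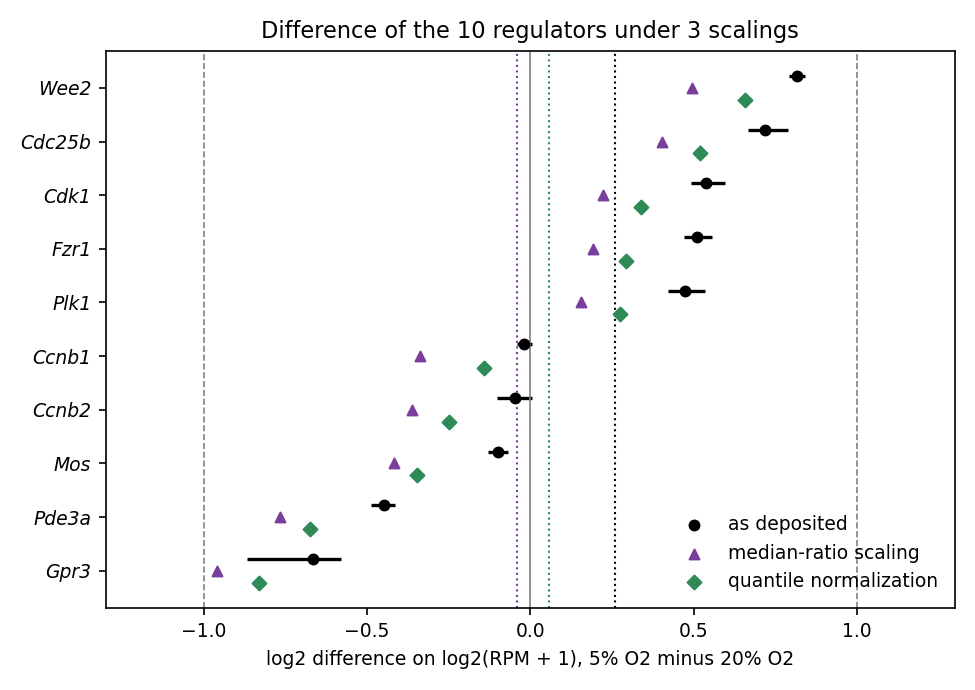
Log2 difference, on log2(RPM + 1), of IV 5% O2 minus IV 20% O2 for the 10 regulators, as deposited (circles, with bars for the 95% counting interval of the ratio without the added 1), with median-ratio scaling (triangles) and with quantile normalization (diamonds). Dotted lines mark the median of all genes tested in each scaling and dashed lines 2-fold; both scalings move every gene to the left (Wee2 from 0.82 to 0.50 and 0.66), no sign turns, and no point passes 2-fold.

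Part of the exons of 5 members is shared with a gene on the other strand. This share is 7.46% in Gpr3 (Cd164l2), 7.09% in Plk1 (Gm44985), 5.82% in Pde3a (Gm28523), 2.47% in Cdc25b (Spef1) and 0.0891% in Fzr1 (Mfsd12). The libraries kept the strand, but whether the counting used it is not stated. Apart from Ccnb1, repeated windows of 50 bases made up 7.43% of Plk1 and 0.333% of Pde3a, and no 100-base window of either is repeated.

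Genes of the G2 and M phases of the mitotic cycle commonly carry a pair of CCAAT boxes, bound by the factor NF-Y, and a cell cycle homology region (CHR) with the letters TTTGAA, read by the DREAM and MuvB complexes. RefSeq promoter windows on GRCm38.p6, from 250 bases before to 50 bases after the start, were at hand for 8 of the 10 genes and not for Mos and Pde3a. CCAAT was found on either strand in 8 of 8 windows, against 37.4% of all 32851 promoters, and TTTGAA on either strand in those of Ccnb2, Cdk1 and Plk1, against 17.9%. At least 2 CCAAT boxes together with TTTGAA occur in 2.09% of all promoters and in those of Cdk1 and Ccnb2. For the CHR only the letters TTTGAA were searched for, so a variant of it would not be counted. Neither motif overlaps the other in these windows. The windows of Cdk1 and Ccnb2 are shown because they hold at least 2 CCAAT boxes together with TTTGAA. Those of Wee2 and Gpr3 are shown because these genes differed most in either direction. All are printed 5′ to 3′ along the gene, and capitals mark CCAAT, its reverse complement ATTGG and TTTGAA.
Cdk1, chr10:69352863-69353162, minus strand: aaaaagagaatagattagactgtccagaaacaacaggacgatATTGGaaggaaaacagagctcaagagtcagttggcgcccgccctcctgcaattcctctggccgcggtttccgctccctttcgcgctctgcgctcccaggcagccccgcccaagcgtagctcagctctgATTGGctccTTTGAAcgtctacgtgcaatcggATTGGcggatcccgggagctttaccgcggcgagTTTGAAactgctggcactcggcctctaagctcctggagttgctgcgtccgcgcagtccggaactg
Ccnb2, chr9:70421505-70421804, minus strand: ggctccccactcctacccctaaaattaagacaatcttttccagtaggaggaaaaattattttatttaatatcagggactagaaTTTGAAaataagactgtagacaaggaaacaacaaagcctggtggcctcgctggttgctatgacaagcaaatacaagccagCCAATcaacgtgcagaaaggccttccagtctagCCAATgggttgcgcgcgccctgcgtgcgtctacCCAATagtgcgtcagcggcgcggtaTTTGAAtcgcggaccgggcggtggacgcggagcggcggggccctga
Wee2, chr6:40442613-40442912, plus strand: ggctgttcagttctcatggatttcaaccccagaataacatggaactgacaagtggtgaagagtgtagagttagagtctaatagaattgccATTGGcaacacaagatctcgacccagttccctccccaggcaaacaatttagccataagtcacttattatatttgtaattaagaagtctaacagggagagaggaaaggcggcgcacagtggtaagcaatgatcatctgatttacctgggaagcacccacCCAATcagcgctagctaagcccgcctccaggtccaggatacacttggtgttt
Gpr3, chr4:133212487-133212786, minus strand: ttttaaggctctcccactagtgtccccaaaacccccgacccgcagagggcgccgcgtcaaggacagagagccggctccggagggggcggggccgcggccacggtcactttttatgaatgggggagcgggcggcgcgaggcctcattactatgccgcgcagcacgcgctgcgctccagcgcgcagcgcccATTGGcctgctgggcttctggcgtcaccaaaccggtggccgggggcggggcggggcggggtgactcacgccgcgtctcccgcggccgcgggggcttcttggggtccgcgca

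In Cdk1 the run TTTGAA starts 15 bases before the start site and again 71 bases before it, with reversed CCAAT boxes 48, 80 and 208 bases before it. In Ccnb2 it starts 4 bases after and 167 bases before the start site, and CCAAT boxes start 21, 54 and 87 bases before it. The window of Wee2 holds 2 CCAAT boxes and that of Gpr3 holds 1. The RefSeq start of Wee2 lies downstream of the start of the gene in the deposited coordinates. Of the 3 genes with both CCAAT and TTTGAA, Cdk1 and Plk1 were higher in IV 5% O2 and Ccnb2 was not. Any part of these motifs in the differences was not tested.

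**Figure D3:**
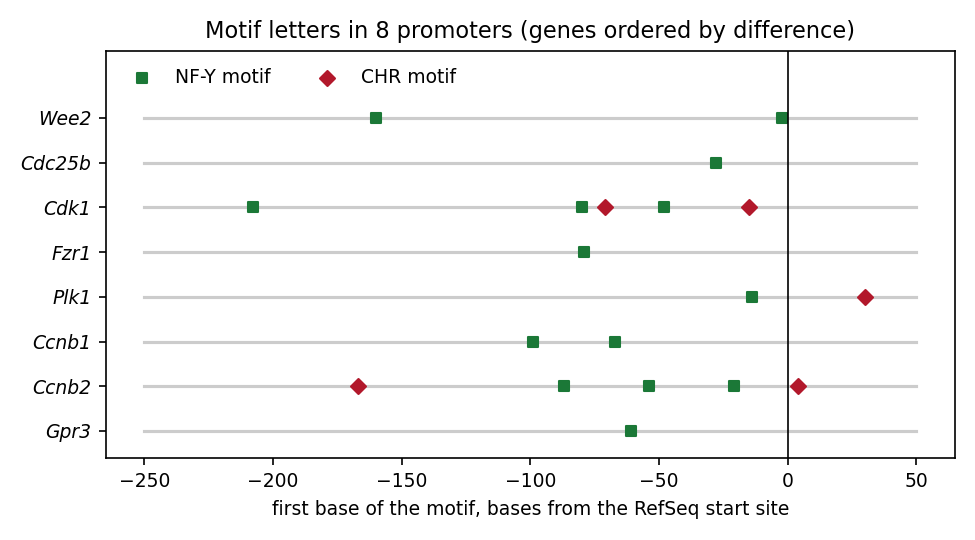
Positions of CCAAT boxes (squares, NF-Y motif) and of CHR letters (diamonds) on either strand in the 8 promoter windows, as the distance in bases of the first base of the motif from the RefSeq start site, with genes ordered from the highest to the lowest log2 difference. Each of the 8 windows holds at least 1 square, and diamonds, which mark TTTGAA only, appear in Cdk1, Plk1 and Ccnb2.

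Levels can be compared between genes only per length, and RPM was divided by the kb of annotated exon. In IV 5% O2, Wee2 was the most abundant at 207 RPM per kb, followed by Mos with 166 and Ccnb1 with 113 RPM per kb. In IV 20% O2 the order of these 3 genes was Mos with 178, Wee2 with 118 and Ccnb1 with 114 RPM per kb. Ccnb2 came next in both columns, with 56.0 and 57.9 RPM per kb. Plk1 had 49.5 and 35.5, Fzr1 41.2 and 28.9, Cdc25b 28.0 and 16.9, and Cdk1 26.5 and 18.2 RPM per kb. Pde3a with 11.7 and 16.0 and Gpr3 with 3.26 and 5.39 RPM per kb were last in both columns. Which neighbours in this order differ beyond the spread between libraries cannot be said from pooled columns. Exon lengths are those of GENCODE M21, whose gene coordinates equal the deposited ones for all 10 genes, while the methods name an oocyte-specific annotation whose exons were not used here. For Ccnb1 the 7 annotated transcripts together cover 4217 bases and the longest alone 2489 bases; with the latter, Ccnb1 had 191 and 194 RPM per kb and stood first in IV 20% O2.

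**Figure D4:**
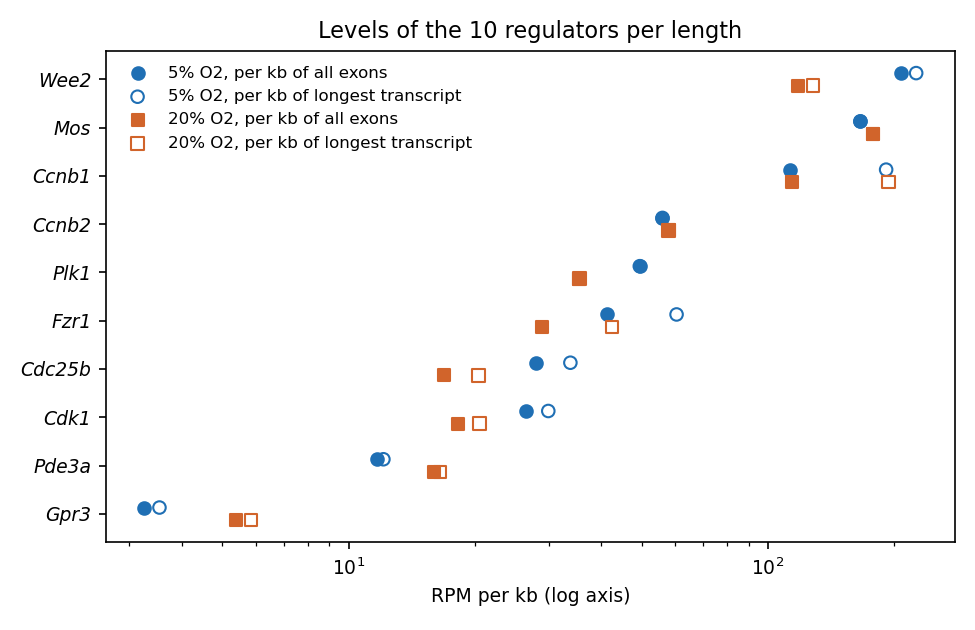
Level of each regulator in RPM per kb (log axis) in IV 5% O2 (circles) and IV 20% O2 (squares), with filled symbols for the length of all annotated exons and open symbols for the longest transcript. Wee2, Mos and Ccnb1 lie highest and Pde3a and Gpr3 lowest in both columns; the choice of length moves Ccnb1 and Fzr1 most.

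The wider pathway held 76 other genes in the table from 4 lists, of which 73 were tested. The median difference was 0.46 in the cyclic AMP and cyclic GMP list, 0.38 in that of CDK1, 0.42 in that of the anaphase-promoting complex and 0.03 in that of Mos, with the 10 members included here and in the counts per list below. Of the 73, 9 were at least 2-fold higher and 4 at least 2-fold lower in IV 5% O2, or 17.8% against 27.9% of all genes tested, and the median difference was 0.42. Of these 13, Pde5a, Rps6ka2 and Ube2d1 reached a mean of 1 RPM only through the column where they were high, so that passing the filter favoured their call. Of the 13 genes, 9 stayed 2-fold apart with both median-ratio scaling and quantile normalization, and 0 turned in direction; the other 4 were Cdc20, Fbxo5, Pde5a and Rps6ka1. With a pseudocount of 5 in place of 1, Cdc14a (0.998), Cks2 (-0.99), Cdc26 (-0.80), Rps6ka2 (0.995), Ube2d1 (-0.77), Rps6ka1 (0.94) and Pde5a (0.46) came out short of 2-fold.

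Around Gpr3 and Pde3a, 17 of the 20 genes of the cyclic AMP and cyclic GMP list in the table were tested, and 1 was at least 2-fold higher and 0 lower (5.88%, against the 27.9% over all genes). That gene was Pde5a, a phosphodiesterase of cyclic GMP, which passed the filter only through IV 5% O2 (3.22 against 0.979 RPM). Its log2 difference of 1.09 came out short of 2-fold with median-ratio scaling (0.89) and quantile normalization (0.80). With each of these scalings the list held 0 higher genes and 1 lower, Prkar1a, which encodes a regulatory subunit of protein kinase A and had 48.3 and 89.2 RPM (-0.87 as deposited, -1.19 and -1.06 with the scalings). Gnas, the gene of the Gs subunit that couples GPR3 to cyclase, had 235 and 171 RPM, and the cyclase gene Adcy3 had 8.59 and 6.14 RPM. Both were thus nominally higher in IV 5% O2 (0.46 and 0.43), on the side opposite to Gpr3. Gpr12, a receptor related to Gpr3, had 146 reads in IV 5% O2 (1.10 RPM) and no read in IV 20% O2, at least 15.0-fold higher against a floor of 3 reads when the 146 reads are taken as exact, but at a mean under 1 RPM. Pde3b, the relative of Pde3a, had 71.5 and 36.6 RPM, a log2 difference of 0.95 where Pde3a had -0.45.

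In the list of CDK1, its cyclins and regulators, 30 genes were tested, 2 were at least 2-fold higher and 1 lower (10%, against the 27.9% over all genes). Ccnb3, another B-type cyclin, had 4513 reads in IV 5% O2, or 34.1 RPM, against 264 reads in IV 20% O2, or 6.46 RPM. The log2 difference of Ccnb3 was 2.24, while those of Ccnb1 and Ccnb2 were -0.02 and -0.05. Cdc14a, a phosphatase gene, had 13.4 and 4.23 RPM (1.46). Cks2, whose small product binds CDK1, had 40.0 and 84.6 RPM, a log2 difference of -1.06. Ccna2 (270 and 170 RPM) and Cdc25a (154 and 96.2 RPM) had differences of 0.66 and 0.68, near that of Cdc25b, and Cdc25c was low in both columns with 6.43 and 5.97 RPM, a difference of 0.09 that turned to -0.18 and -0.10 with the scalings. Of the other kinases that inhibit CDK1, Wee1 had 54.3 and 71.6 RPM (-0.39), against 0.82 for Wee2, and Pkmyt1 had 21.4 and 17.1 RPM (0.30). Aurka (198 and 145 RPM) and Bora (65.0 and 35.8 RPM), whose products activate PLK1, had differences of 0.45 and 0.84 beside the 0.47 of Plk1.

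In the anaphase-promoting complex list, 21 genes were tested, 3 were at least 2-fold higher and 2 lower (23.8%, against the 27.9% over all genes). This balance turned to 1 higher and 5 lower with median-ratio scaling and to 1 and 4 with quantile normalization. Cdc20, the activator that takes over from FZR1 in division, had 111 and 52.3 RPM (1.07). Fbxo5, which encodes the inhibitor EMI1, had 171 and 74.9 RPM (1.18), and Fbxo43, the gene of EMI2, had 92.3 and 59.9 RPM (0.62). With median-ratio scaling Cdc20 and Fbxo5 came under 2-fold, at 0.75 and 0.86. Anapc15 had 167 and 49.3 RPM (1.74) and stayed past 2-fold with both scalings. Ube2d1, a ubiquitin-conjugating enzyme gene, had 0.673 and 4.70 RPM (-1.77), and Cdc26, a small subunit, had 7.84 and 17.4 RPM (-1.06). The lower genes gained with median-ratio scaling were Anapc1 (-1.16), Anapc10 (-1.09) and Ube2c (-1.17), which were at -0.84, -0.78 and -0.86 as deposited.

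In the list of Mos and the MAP kinases, 15 genes were tested, 3 were at least 2-fold higher and 1 lower, or 26.7% against 27.9% of all genes tested. Map2k1, the kinase gene directly downstream of Mos, had 307 and 194 RPM (0.66), and Mapk3 had 107 and 105 RPM. The difference of Mapk3, 0.03, turned to -0.28 with median-ratio scaling. Rps6ka2, which passed the filter only through IV 5% O2, had 5.21 and 0.122 RPM, of which the latter rests on 5 reads. Rps6ka1 had 45.2 and 21.2 RPM (1.05). Cpeb1, which encodes the protein that keeps Mos and cyclin B1 mRNAs dormant until maturation, had 233 and 563 RPM, 2.42-fold lower in IV 5% O2 (-1.27). Btg4, an adaptor in the removal of maternal mRNAs, had 632 and 222 RPM (1.51). Cpeb1 and Btg4 were more than 2-fold apart with each scaling, while Mos and Ccnb1 themselves had differences of -0.10 and -0.02 as deposited, -0.42 and -0.34 with median-ratio scaling and -0.35 and -0.14 with quantile normalization.

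**Figure D5:**
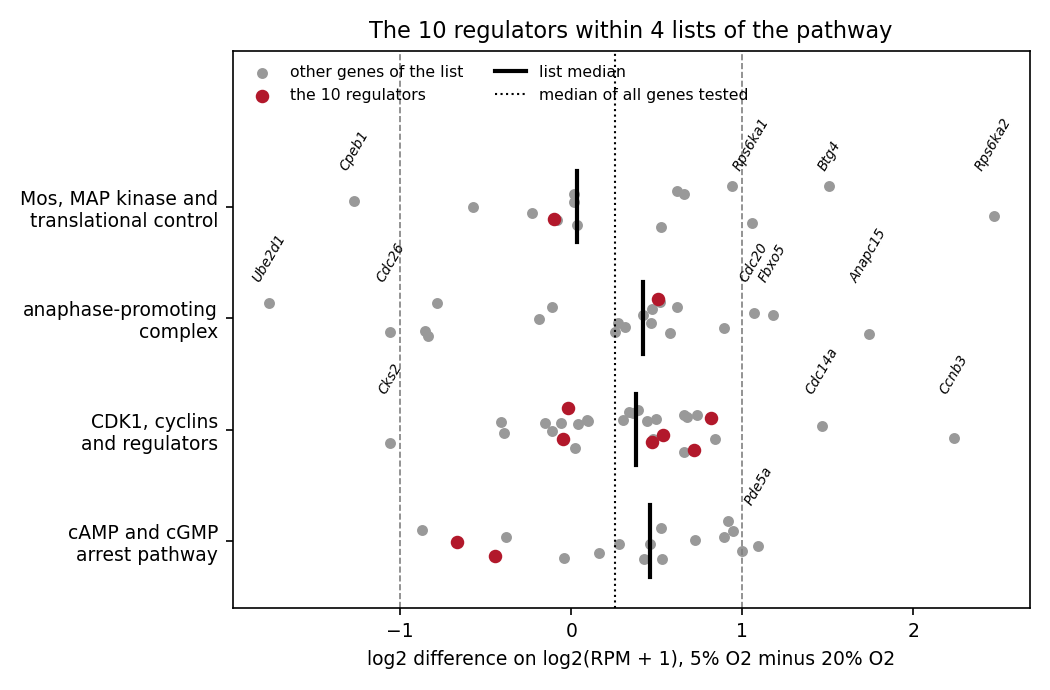
Log2 difference, on log2(RPM + 1), of IV 5% O2 minus IV 20% O2 for the tested genes of the 4 pathway lists, with the 10 regulators in red, other genes in grey, a bar at each list median, a dotted line at the median of all genes tested and dashed lines at 2-fold. Genes past 2-fold are named; the regulators lie between -0.67 and 0.82, inside the dashed lines, and Ccnb3, Rps6ka2 and Ube2d1 lie farthest out.

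The oocyte identity of both columns was seen in its markers, with all 14 of them at 1 RPM or more in both columns and Gdf9 at 2346 and 2805 RPM. Their median difference was -0.32, and 3 (Zp2, Zp3 and Kit) were at least 2-fold lower in IV 5% O2, or 21.4% against 9.22% of all genes tested, Zp3 with 690 and 1501 RPM. Of the 18 theca and stroma markers, 11 were in the table and summed to 46.1 RPM in IV 5% O2 but 7.17 RPM in IV 20% O2, where Vim, Col1a2 and Dcn had no read. Cyp11a1 had 16.4 and 0.122 RPM, Hsd3b1 5.96 and 0.489 RPM, and Postn 5.25 and 0.367 RPM. Star (5.18 and 1.86 RPM) and Fn1 (4.94 and 2.30 RPM) were above 1 RPM in both columns, and Nr2f2 had 0.787 and 1.69 RPM, higher in IV 20% O2. No count past 2-fold is given for this list, since most of its tested markers reached a mean of 1 RPM through 1 column alone. The 7 of 13 granulosa markers in the table summed to 75.6 and 62.0 RPM, led by Gata4 (34.3 and 32.2 RPM) and Nr5a2 (18.7 and 17.6 RPM). Kitl (10.2 and 5.58 RPM), Cyp19a1 (9.12 and 5.70 RPM) and Inhba (2.63 and 0.758 RPM) had higher values in IV 5% O2. Fshr had no read in IV 5% O2 and Inha none in IV 20% O2. The 3 of 8 macrophage markers summed to 17.9 and 21.1 RPM, with Csf1r at 9.28 and 15.0 RPM, Cd68 at 7.18 and 6.14 RPM and Lyz2 without a read in IV 20% O2. Cdk1, Ccnb1, Ccnb2, Cdc25b and Plk1 are also used by dividing somatic cells. Of the 10 genes listed for such cells, 9 were in the table and summed to 1326 and 978 RPM, led by Cenpf (397 and 269 RPM), Mcm5 (273 and 138 RPM) and Mki67 (197 and 180 RPM). Of these 9, Top2a (123 and 54.0 RPM) and Hmmr (29.7 and 9.39 RPM) were at least 2-fold higher and 0 lower as deposited, or 22.2% against 18.7% of all genes tested, while Ube2c, also in this list, passed 2-fold lower with the scalings. Whether the reads of this list came from somatic cells or from oocytes cannot be told from bulk RNA, so its sum does not measure somatic cells. The part of other cells in the levels of the 10 regulators was not tested.

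Short genes differed from long ones between the columns. Among genes with under 1000 bases of exon, 20.99% were at least 2-fold lower in IV 5% O2, with a median of 0.08, against 6.46% and 0.24 among those with 4000 bases or more. The shares at least 2-fold higher were 19.2% and 16.9%. The medians did not rise steadily with length, as genes of 2000 to under 4000 bases had the highest, 0.33. No member falls in the shortest class. Ccnb2 and Mos, with 1531 and 1449 bases, are in the class of 1000 to under 2000 bases. The median of that class was 0.24, and 14.4% of its genes were at least 2-fold lower. The part of gene length in the differences was not tested.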

How the data were processed

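RNA-seq values of class IV oocytes were analysed; the RRBS and PBAT libraries were not used here. The authors aligned reads to mm10 (GRCm38) with TopHat (TopHat2 2.0.9 in the submitters' processing notes), summed them per gene with SeqMonk on an oocyte annotation, and deposited them as log2 values in 1 pooled column per condition; how the 2 libraries were combined is not stated. The methods describe a length correction, but 99.4% and 99.9% of the linear values of IV 5% O2 and IV 20% O2 lay within 0.02 of a whole number of reads at 1 step for all genes, so they were read as RPM. Genes listed at 0.9 of 1 read were set to 0. Another 1 value column, of no sample analysed here, was not used. Of rows that repeat a gene name, the one highest on average was taken.

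The planned limma fit needs 1 value per library and was not run. Instead, genes at least 2-fold apart on log2(RPM + 1) were counted among those averaging 1 RPM or more. The interval calculation was tested on simulated data. The members and lists were chosen with earlier results of these data known. All 10 members are named; of other pathway genes, those at least 2-fold apart (at most 4 in each direction per list) and fixed partners of a member, 1 of which is not reported here; of markers, Gdf9, Zp3 and in each column the 3 highest over the granulosa, theca and macrophage lists together and the 3 highest of the list for dividing cells. Other genes named were chosen after their values were seen. Exon lengths came from GENCODE M21, promoters from RefSeq (GRCm38.p6). Alternatives were other pseudocounts, filters, scalings and lengths. Calculations ran in Python 3.11.15 with scipy 1.17.1 for intervals, pandas 2.3.3 and numpy 2.4.6 for tables, numba 0.67.0 for the repeat search and matplotlib 3.10.9 for plots.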

Additional observations from a re-analysis of the deposited data

How the results depend on the processing

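No paired analysis was possible because the table gives 1 pooled value per condition and gene, so fits with a replicate block or without 1 library were not run. The sign of the difference of each of the 10 members was the same in all 7 alternatives, and the count of members at least 2-fold apart was 0 in each; 21 of 70 values shifted farther than the distance, in log2 units, from a ratio to the more remote end of its interval, all but 1 of them with the scalings. With median-ratio scaling the median of all genes tested turned from 0.26 to -0.0404, that of the members from 0.23 to -0.0904 and that of the Mos and MAP kinase list from 0.03 to -0.28; quantile normalization turned the latter to -0.15. These scalings moved the share of higher calls from 67.0% to 45.6% and 48.6%.

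Of all genes tested, 2753 were higher by at least 2-fold, against 1700 and 1764 with median-ratio and quantile scaling, 1202 when 5 RPM were added, and 1691 under a filter of 5 RPM; 1356 were lower, against 2031 and 1866 with median-ratio and quantile scaling, 1625 with a pseudocount of 0.1 and 706 with a pseudocount of 5. In the cyclic AMP list, 1 higher gene became 2 with a pseudocount of 0.1, 4 without a filter, and 0 with a pseudocount of 5, under the filter of 5 RPM and with either scaling, while 0 lower genes became 1 with either scaling. In the CDK1 list, 2 higher and 1 lower became 1 and 0 with a pseudocount of 5. In the anaphase-promoting complex list, 3 higher became 1 with either scaling, and 2 lower became 5 and 4 with median-ratio and quantile scaling, 1 under the filter of 5 RPM and 0 with a pseudocount of 5. In the Mos list, 3 higher became 1 with a pseudocount of 5. Apart from the 1 factor per column that median-ratio scaling applies and the fewer genes that a stricter filter tests (10755), the cause was not tested.

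Division by the longest transcript in place of all exons put Ccnb1 second in IV 5% O2 and first in IV 20% O2. Depth limits Gpr3, which rests on 602 reads in IV 20% O2 and has the widest interval of the members.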
